A study of Mus musculus with 42 samples.

Results

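The terminal complement components are the plasma proteins that assemble into the membrane attack complex, a pore that complement inserts into the membrane of a target cell. Of the genes that encode them, 6 were described here: Hc, which encodes C5, C6, the 3 chain genes of C8 (C8a, C8b and C8g), and C9. They are 6 of the 17989 genes measured. The genes were chosen by name, and their probe sets selected on brightness (the highest mean over all arrays of those with a single gene symbol), but each member had exactly 1 such probe set, so brightness decided nothing. Liver RNA of male wild-type (WT) C3HeB/FeJ mice, an inbred strain, housed singly and random fed, was measured on 42 Affymetrix arrays. The 18 control arrays came from mice on a low-fat diet (LFD) for up to 21 days, aged 15 to 17 weeks. The high-fat diet (HFD) groups had 8 arrays each, at 7 days (15 weeks of age), 14 days (16 weeks) and 21 days (17 weeks), so age rose with time on the diet while the controls were pooled over age. Arrays are numbered within a group, and nothing in the labels ties a number to a separate mouse. Each p-value therefore refers to the spread among arrays, some of it perhaps technical.

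Complement activation ends in the cleavage of C5, after which the larger fragment binds C6 and C7, then C8, and finally many copies of C9 that close the pore. C8 is made of an alpha, a beta and a gamma chain, of which alpha and gamma are joined by a disulphide bond and beta binds without one. C6, C7, C8 alpha, C8 beta and C9 share a domain with perforin, the pore protein of killer lymphocytes, whereas C8 gamma is a lipocalin and C5 belongs with C3 and C4 to the alpha-2-macroglobulin family. Hepatocytes make most of these proteins, and in mice terminal complement activity in plasma is higher in males than in females.

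Array values are log2 RMA signals, which can be compared between arrays for 1 gene but not between genes, since probes bind with different strength. All 6 members were well above background, taken as the 95th percentile of 929 olfactory receptor genes (2.86); the lowest mean over all arrays was that of C6 at 7.32. C7, the remaining component of the pore and not a member, averaged 2.94 and so lay close to background. Hepatocyte markers were high in every group (the mean of 7 markers lay between 11.38 and 11.98 on every array), although 1 of them, Arg1, fell at 14 and 21 days, and Arg1 (log2 -0.28, limma adjusted p = 0.0012) and Cps1 (-0.39, 0.0108) were lower in the mean of the HFD times. Centring each array on its median ended the Arg1 call at 14 days. After quantile normalisation Arg1 and Cps1 were also called lower at 7 days. The part of the hepatocyte markers in the members' differences was not tested. The mean of 15 pancreatic acinar markers varied widely, between 3.36 and 9.50 over the arrays, with group medians of 4.48 in controls and 5.35, 5.57 and 4.22 at the 3 HFD times. It was above 7 on 3 control, 3 7-day, 2 14-day and 0 21-day arrays. Above background were 1 of 5 lymphocyte markers and 1 of 4 neutrophil markers. The word reanalysis stands in the array titles of controls and of the 21-day group alone. Any batch behind that word cannot be told apart from diet at 7 and 14 days, whereas both groups of the 21-day comparison carry it. In the deposited values 1 probe set was present on controls 1 to 9 and missing on the 33 other arrays. Whether the controls came from more than 1 batch was not tested.

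Against controls, 3 of the 6 genes fell. C8b was lower at every time, by 1.60-fold at 7 days, 1.49-fold at 14 days and 1.68-fold at 21 days. C9 was 1.44-, 1.47- and 1.52-fold lower, and C6 was 1.68-fold lower at 21 days. The C9 calls at 7 and 14 days were close to the threshold (limma adjusted p = 0.0456 and 0.0489). They ended in 15 and 21 of 26 fits with 1 array left out. Hc, C8a and C8g passed the test at no time, and 0 members rose. The count of members called lower was thus 2 at 7 days, 2 at 14 days and 3 at 21 days, where 0.239%, 0.161% and 0.256% of all genes were called lower and 1.4%, 0.667% and 0.7% in either direction. In the mean of the 3 HFD times against controls 3 members were called lower, where 0.528% of all genes were called lower and 1.88% in either direction. The 3 had an unadjusted p under 0.05 there, as did 9.06% of all genes. The genes were grouped with these comparisons already known, so the counts describe them and nothing is read from the shares. A gene was called at a Benjamini-Hochberg adjusted p under 0.05 over all genes in limma. The median log2 change of the 6 was -0.15, -0.25 and -0.47, beside -0.01, 0.00 and 0.01 over all genes. Of all genes 19, or 0.106%, were called lower at all 3 times, C8b and C9 among them. In bulk liver, fewer cells that make a transcript and less of it per cell cannot be told apart.

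**Figure D1:**
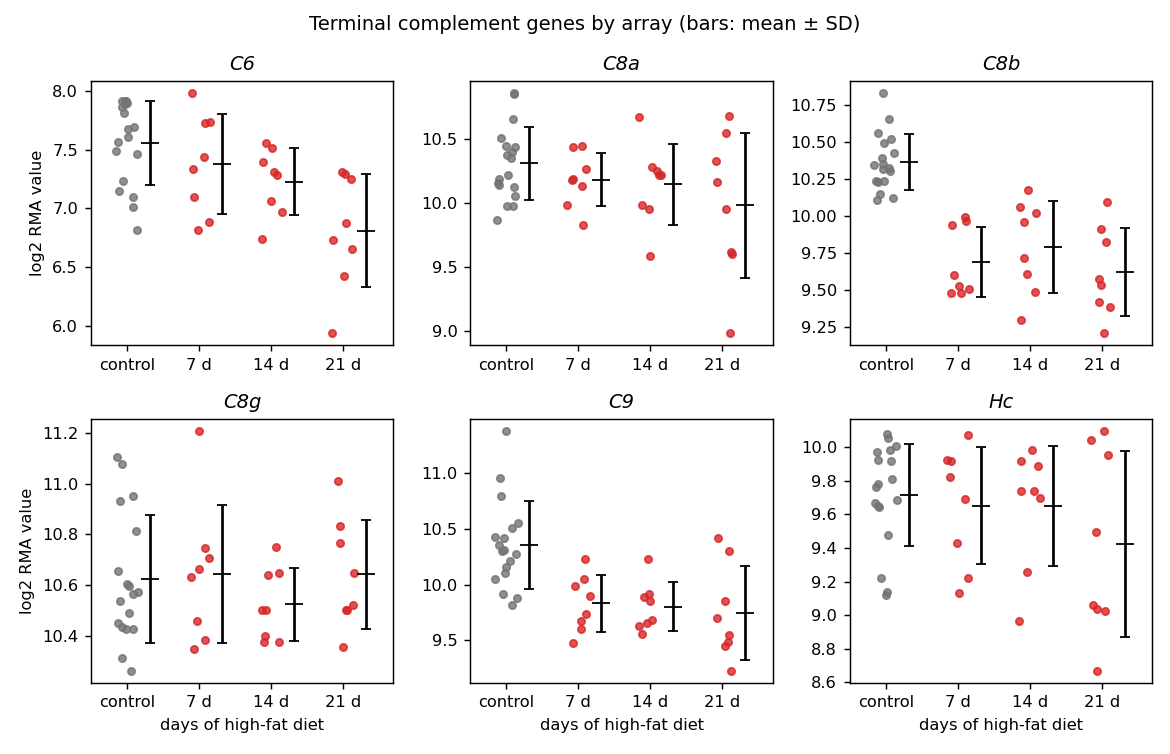
Log2 RMA value of each gene on every array (points) in controls (grey, n = 18) and after 7, 14 and 21 days of high-fat diet (red, n = 8 each), with the mean and SD of each group beside the points. All C8b points at 7 and 21 days lie below every control, those of C9 overlap the controls, and those of C8g share their range, apart from 1 array above it at 7 days.

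C8b encodes the beta chain, through which C8 docks onto the growing complex. Its log2 values ran from 10.11 to 10.83 in controls (median 10.33). The 7-day arrays held 9.48 to 9.99 (median 9.56), the 14-day arrays 9.30 to 10.18 (9.84) and the 21-day arrays 9.21 to 10.09 (9.55). Every array at 7 and 21 days lay below every control, and at 14 days 7 of 8 did. Such a complete separation downwards was seen for 0.0167% of all genes at 7 days, 0.0222% at 14 days and 0.0167% at 21 days. The log2 changes were -0.68 at 7 days (SE 0.10, limma adjusted p = 1.5e-05), -0.58 at 14 days (SE 0.10, adjusted p = 0.000621) and -0.75 at 21 days (SE 0.10, adjusted p = 7.21e-06). Ranked by p among 17989 genes, C8b stood at place 49, 37 and 11. The call stood whichever array was left out, with the largest adjusted p at 0.0046. It ended at 14 days with the HFD arrays numbered 1 to 4 alone (log2 -0.43, adjusted p = 0.117). The group means were in the order control, 14, 7 and 21 days (10.37, 9.79, 9.69 and 9.62), and the 3 HFD means did not differ beyond their spread (limma F test over the HFD times, p = 0.362, adjusted p = 0.9996).

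C8a and C8g encode the other chains of C8. C8a is the neighbour of C8b on chromosome 4, with 0 protein-coding genes between them. C8a ran from 9.86 to 10.86 in controls (median 10.28) and from 9.82 to 10.44 (10.18), 9.58 to 10.67 (10.22) and 8.98 to 10.68 (10.05) at 7, 14 and 21 days, so that all 3 HFD groups overlapped the controls. Its log2 differences were -0.13 (95% limits -0.41 to 0.16), -0.17 (-0.45 to 0.12) and -0.33 (-0.61 to -0.04), with limma adjusted p of 0.828, 0.974 and 0.618. The unadjusted p at 21 days was 0.0259, where 6.66% of all genes had one under 0.05. C8g, on chromosome 2, had means of 10.62 ± 0.25 in controls (SD, n = 18) and 10.64 ± 0.27, 10.52 ± 0.14 and 10.64 ± 0.22 (n = 8 each) at the 3 times. Its differences were 0.02 (95% limits -0.18 to 0.22), -0.10 (-0.30 to 0.10) and 0.02 (-0.18 to 0.22), and these limits do not reach the change of C8b at any time.

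The change of C8b differed from that of C8a and of C8g at each time, tested as the within-array difference of 2 members against controls, while C8a and C8g did not pass against each other (-0.15, -0.07 and -0.35, adjusted exact p = 0.361, 0.725 and 0.0857). Exact permutation tests over the arrays were run for the 15 pairs of members at 3 times, 45 tests in all, chosen after the single-gene results were seen. With Benjamini-Hochberg adjustment over the 45, 6 pairs passed at 7 days, 6 at 14 days and 8 at 21 days. C8b changed by 0.70 more than C8g on the log2 scale at 7 days, with C8b minus C8g at -0.70 (SE 0.16, adjusted exact p = 0.000714), -0.48 at 14 days (SE 0.13, adjusted exact p = 0.0026) and -0.77 at 21 days (SE 0.15, adjusted exact p = 0.000526). The change of C8a minus that of its neighbour C8b was 0.55 at 7 days (SE 0.10, adjusted exact p = 0.000403), 0.41 at 14 days (SE 0.15, adjusted exact p = 0.0087) and 0.42 at 21 days (SE 0.14, adjusted exact p = 0.0067). With the HFD arrays numbered 1 to 4 alone, C8a minus C8b was 0.13 at 14 days (adjusted exact p = 0.573) and 0.11 at 21 days (0.577), and C8b minus C8g was -0.34 at 14 days (0.0861). Without the arrays whose acinar mean was above 7, C8a minus C8b at 14 days was 0.35 (adjusted exact p = 0.0647).

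C9 encodes the subunit that polymerises to line the pore. Its log2 values ran from 9.82 to 11.38 in controls (median 10.31). The 7-day arrays held 9.48 to 10.23 (9.82), the 14-day arrays 9.56 to 10.23 (9.77) and the 21-day arrays 9.23 to 10.42 (9.63). All 8 arrays at 7 and at 14 days and 7 of 8 at 21 days lay below the control mean of 10.36, while 4, 4 and 5 lay below the lowest control. All 8 arrays below the control mean were found for 3.2% of genes at 7 days and 2.32% at 14 days. The log2 changes were -0.52 (SE 0.14, limma adjusted p = 0.0456), -0.55 (SE 0.14, 0.0489) and -0.61 (SE 0.14, 0.0188), the first 2 close to the threshold. At 7 days the call ended without any 1 of HFD arrays 1, 2, 3, 4 and 6 or controls 1, 2, 3, 6, 7, 8, 9, 12, 15 and 18 (adjusted p up to 0.148). At 14 days it ended without any 1 of HFD arrays 1 to 7 or controls 1, 2, 3, 5, 6, 7, 8, 9, 10, 12, 14, 15, 16 and 18 (up to 0.166), and at 21 days without any 1 of HFD arrays 1 to 4 (up to 0.0778). The log2 change stayed between -0.70 and -0.46 over these omissions. Centring each array on its median also ended the calls at 7 and 14 days (adjusted p = 0.0916 and 0.0889), as did leaving out the arrays whose acinar mean was above 7 (0.261 and 0.128). HFD arrays 5 to 8 alone ended the calls at 7 days (log2 -0.37, adjusted p = 0.579), 14 days (-0.52, 0.448) and 21 days (-0.29, 0.451), and arrays 1 to 4 alone that at 14 days (-0.59, 0.202). Calls at all 3 times ended with only the compared groups in the fit (0.0568, 0.0552 and 0.0918) and with controls 10 to 18 alone (0.333, 0.462 and 0.221). In the mean of the 3 HFD times against controls C9 was at -0.56 (SE 0.10, limma adjusted p = 0.000374), a call that stood whichever array was left out and ended with HFD arrays 5 to 8 alone (adjusted p = 0.0741) or controls 10 to 18 alone (0.0571). C9 also fell more than C8g: C8g minus C9 was 0.55, 0.45 and 0.63 (adjusted exact p = 0.000526, 0.0014 and 0.000526). At 21 days this difference was 0.33 (0.0806) with HFD arrays 5 to 8 alone.

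C6 is the first protein to bind the cleaved C5. Its log2 values ran from 6.82 to 7.92 in controls (median 7.64). The 7-day arrays held 6.81 to 7.98 (7.39), the 14-day arrays 6.74 to 7.56 (7.30) and the 21-day arrays 5.94 to 7.31 (6.80). All 8 arrays at 21 days lay below the control mean of 7.56, as was the case for 0.856% of genes, and 4 lay below the lowest control. At 7 days 1 array lay above the highest control. The log2 differences were -0.18 (SE 0.16, limma adjusted p = 0.772), -0.33 (SE 0.16, 0.794) and -0.75 (SE 0.16, 0.0050). The 21-day call stood whichever array was left out (adjusted p up to 0.0292) and ended with HFD arrays 5 to 8 alone (log2 -0.52, adjusted p = 0.130) or with controls 10 to 18 alone (-0.71, 0.0635). The group means were in the order control, 7, 14 and 21 days (7.56, 7.38, 7.23 and 6.81). Of the HFD arrays, only those at 21 days carry the word reanalysis, so any batch behind it cannot be told apart from time. The 21-day level was lower than that at 7 days by a log2 difference of -0.57 (SE 0.18, p = 0.0033) and than that at 14 days by -0.42 (SE 0.18, p = 0.0269), neither of which passed over all genes (limma adjusted p = 0.602 and 0.999). An unadjusted p under 0.05 was found for 7.13% and 3.97% of genes in these comparisons. Between 14 and 7 days 0 members had one, as against 2.51% of genes. In the mean of the HFD times C6 was at -0.42 (SE 0.11, limma adjusted p = 0.0376). That call ended without any 1 of 21 of the 42 arrays (adjusted p up to 0.0712): controls 1, 5 to 9, 12 and 15 to 18, 7-day arrays 2, 4, 5 and 7, 14-day arrays 4 to 6 and 21-day arrays 2 to 4. It also ended with centring (0.0639), array weights (0.148), HFD arrays 1 to 4 alone (0.0748), controls 1 to 9 alone (0.147), controls 10 to 18 alone (0.389) and without the acinar-rich arrays (0.0707).

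Hc encodes C5, whose cleavage starts the terminal pathway. Its log2 values ran from 9.12 to 10.08 in controls (median 9.77). The 7-day arrays held 9.13 to 10.07 (9.76), the 14-day arrays 8.96 to 9.98 (9.74) and the 21-day arrays 8.67 to 10.10 (9.28), so that all groups overlapped. The log2 differences were -0.06 (95% limits -0.37 to 0.24), -0.07 (-0.38 to 0.24) and -0.29 (-0.60 to 0.02), with limma adjusted p of 0.927, 0.992 and 0.791. Between the HFD times 0 of the 6 members passed limma's F test over all genes (1, C6, had an unadjusted p under 0.05, at 0.0095), where 0.00556% of all genes passed.

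**Figure D2:**
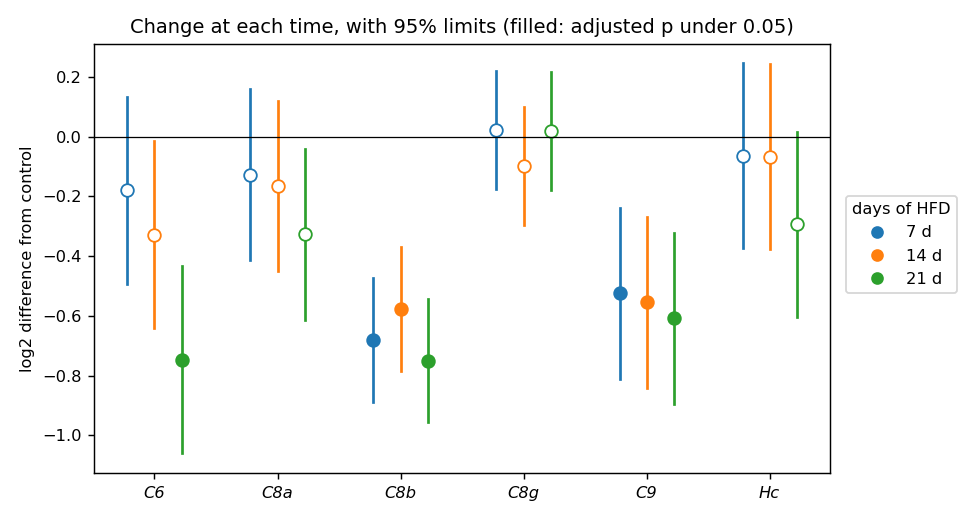
Log2 difference from control of each gene at 7, 14 and 21 days of high-fat diet (points) with 95% limits from the limma fit (lines); filled points had an adjusted p under 0.05. C8b and C9 lie below 0 at all 3 times, C6 does so past the threshold at 21 days, and the limits of C8g include 0 throughout.

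For 3 of the 6 members, the 21-day arrays numbered 1 to 4 and 5 to 8 differed. C8a averaged 9.53 on the arrays numbered 1 to 4 and 10.43 on those numbered 5 to 8, and every array of the first set lay below every array of the second. C9 averaged 9.43 and 10.07, also without overlap, and Hc 9.07 and 9.78, with 1 array of the second set at 9.03 inside the range of the first. Every array of 1 to 4 lay below every array of 5 to 8 for 8.94% of all genes. The differences (arrays 5 to 8 minus 1 to 4) were 0.89 for C8a (SE 0.19, limma adjusted p = 0.0013), 0.64 for C9 (SE 0.22, 0.0327) and 0.72 for Hc (SE 0.24, 0.0289). C6 (0.46, SE 0.25, 0.194), C8b (0.26, SE 0.16, 0.278) and C8g (0.04, SE 0.16, 0.898) did not pass. The 3 members called of 6 stand beside 19.1% of all genes called in this comparison, which was added after the data were seen. After quantile normalisation the calls of C9 (adjusted p = 0.116) and Hc (0.0541) ended. Malat1, a nuclear RNA, averaged 6.97 on the 21-day arrays 1 to 4 and 9.39 on 5 to 8, a split that was also present at 7 days (6.79 and 9.05) and 14 days (6.19 and 8.96), where 0 of the 6 members passed the same test and 0% and 0.0278% of all genes did. Its part in the member differences was not tested. Against controls, the 21-day arrays 1 to 4 alone gave 5 called members, with C8a at -0.77 (limma adjusted p = 0.0056) and Hc at -0.65 (0.0268). Arrays 5 to 8 alone gave 1, C8b (-0.62, adjusted p = 0.0085), with C8a at 0.12, Hc at 0.06 and C9 at -0.29. Of 17989 genes, 903 were called with arrays 1 to 4 alone and 349 with arrays 5 to 8 alone. With all 21-day arrays 126 were called, so nothing is read from the member counts.

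**Figure D3:**
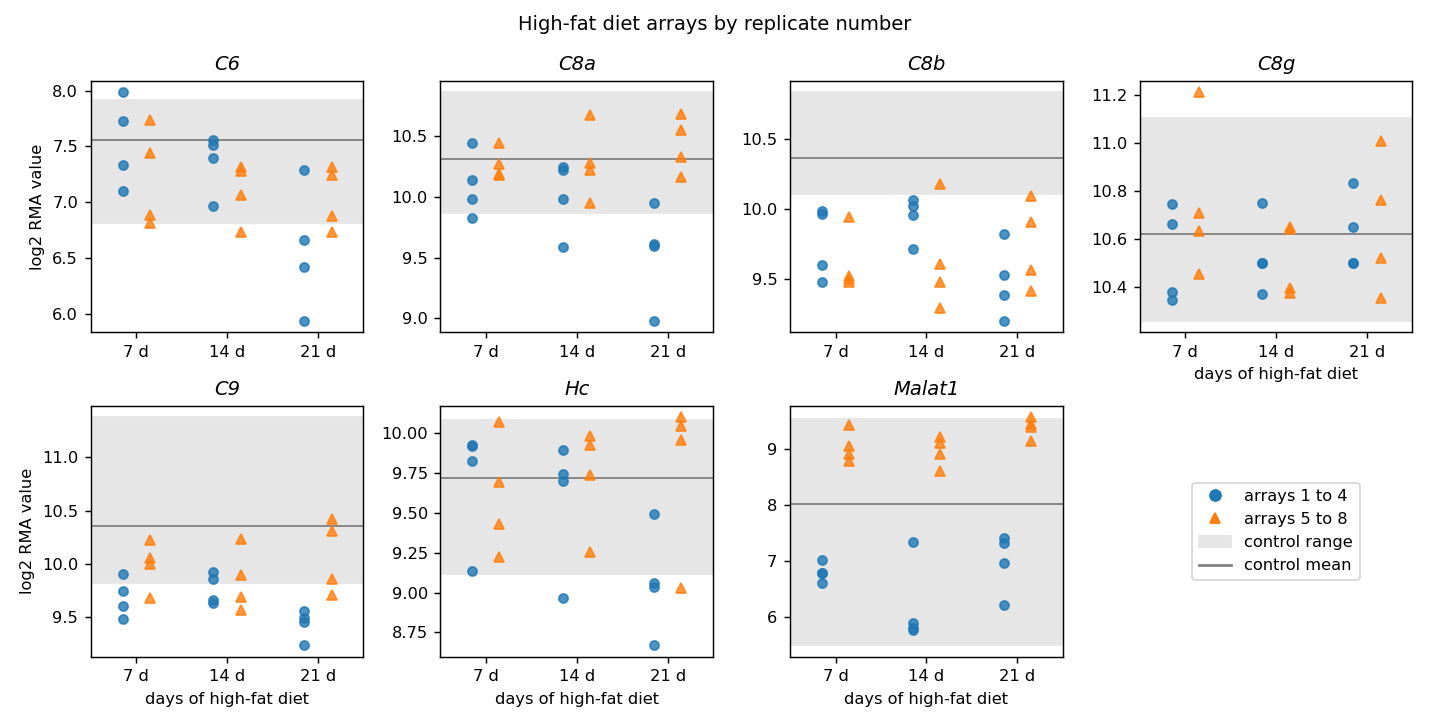
Log2 RMA value of each gene and of Malat1 on the high-fat diet arrays numbered 1 to 4 (circles) and 5 to 8 (triangles) at each time, over the control range (grey band) and control mean (line). At 21 days the circles of C8a and C9 lie below all triangles, whereas C8b is low in both sets and C8g in neither.

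Within groups, the members did not form a single block. After the group means were subtracted, Pearson's r over the 42 arrays was highest between C8a and Hc (0.73), C6 and Hc (0.72) and C8a and C9 (0.71), followed by C6 and C8b (0.64) and C8g and C9 (0.64). C8g had an r of -0.32 with Hc, -0.24 with C6 and 0.04 with C8b. These are descriptions over arrays that were normalised together. Malat1 had an r of 0.66 with C9, 0.63 with C8a, 0.35 with C8g, 0.29 with Hc, 0.14 with C6 and 0.11 with C8b. Controls alone gave 0.75, 0.68, 0.47, 0.26, 0.41 and 0.40, and the HFD groups 0.59, 0.60, 0.26, 0.30, -0.03 and -0.03. The acinar mean had its largest correlations with Hc (-0.36), C8a (-0.18) and C6 (-0.17), and was at -0.04 for C8b and 0.03 for C9. For the hepatocyte marker mean r was 0.75 with Hc, 0.51 with C8a, 0.45 with C6, 0.39 with C8b, 0.03 with C9 and -0.15 with C8g. In the same order it was 0.59, 0.23, -0.03, -0.16, -0.14 and -0.18 in the 18 controls. Within the HFD groups (24 arrays) it was 0.81, 0.62, 0.71, 0.61, 0.17 and -0.14, so the relation of C6 and C8b was seen there alone. The Kupffer cell and macrophage marker mean was at 0.63 with C8a, 0.515 with C9, 0.435 with C8b, 0.42 with C8g, 0.34 with Hc and 0.25 with C6. Its values in controls were 0.37, 0.45, 0.28, 0.59, -0.02 and 0.08, and those within the HFD groups 0.795, 0.59, 0.54, 0.25, 0.56 and 0.37. The part of these markers in the member differences was not tested. With Malat1 as a covariate the changes of C8b were -0.68, -0.57 and -0.75, and with the acinar mean -0.68, -0.57 and -0.75, all 6 called. Over the 42 arrays C8b was little correlated with either covariate, though in controls its r with Malat1 was 0.40. For C9 at 7 and 14 days the changes were -0.51 and -0.48 with Malat1 (limma adjusted p = 0.0037 and 0.0148). With the acinar mean they were -0.53 and -0.56 (0.0446 and 0.0499), close to the threshold.

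**Figure D4:**
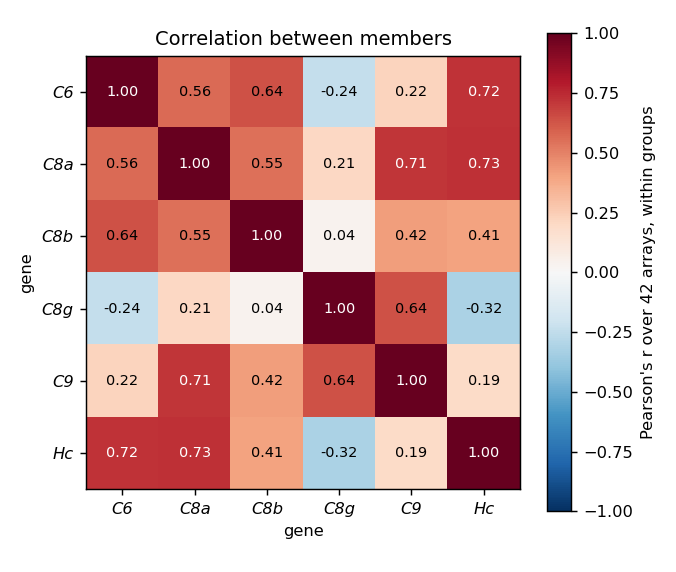
Pearson's r between the 6 genes over 42 arrays after each group's mean was subtracted, from -1 (blue) to 1 (red). C6, C8a and Hc correlate at 0.56 or more with each other, while C8g correlates at 0.64 with C9 and below 0 with C6 and Hc.

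The genes most like each member were taken by the same within-group r over 42 arrays, passing over unnamed genes. Cyp7b1, an oxysterol hydroxylase that is higher in male than in female mouse liver, was the first of 17988 other genes for both C8b (r = 0.85) and C6 (0.78), and Nrp1, a receptor for semaphorins and VEGF, was the next for both (0.71 and 0.75). The next was Ces3b, a carboxylesterase, for C8b (0.70) and F11, coagulation factor XI, for C6 (0.74). Cyp7b1 itself was lower at 7 days (log2 -0.93, limma adjusted p = 0.000324) and 21 days (-0.82, 0.0036), with -0.52 at 14 days (adjusted p = 0.260). Nrp1 did not fall (0.08, 0.40 and 0.03). C8a was most like Abca8a (0.91), Mmut, methylmalonyl-CoA mutase (0.89), and Tpp2 (0.89), and C9 like Akr1c6 (0.91), Igf1 (0.89) and Lpar6 (0.89). Hc was most like Cltc, the clathrin heavy chain (0.93), Abcb11, the bile salt export pump (0.93), and Ptprd (0.92). C8g was most like Clec4g (0.89), a lectin of liver endothelium, Tcea1 (0.88) and Slirp (0.88). The other member nearest to C6 was Hc, at place 7, and the one nearest to C8b was C6, at place 13. The neighbours C8a and C8b were at place 1511 and 52 in each other's order (r = 0.55).

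The upstream sequences of the 3 genes that fell, and of C8a as the neighbour of C8b, show what these windows share. Each is the 250 bases before the RefSeq gene start in build GRCm38.p6, written on the gene's strand, with matches to the searched motifs in capitals: C6 at chr15:4726960-4727209 (+), C8a at chr4:104876399-104876648 (-), C8b at chr4:104766067-104766316 (+) and C9 at chr15:6445096-6445345 (+).
C6: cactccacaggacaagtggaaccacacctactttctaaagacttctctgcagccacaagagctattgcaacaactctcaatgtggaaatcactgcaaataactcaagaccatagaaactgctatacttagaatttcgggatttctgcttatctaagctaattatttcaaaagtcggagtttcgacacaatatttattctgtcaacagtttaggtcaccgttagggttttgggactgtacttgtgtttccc
C8a: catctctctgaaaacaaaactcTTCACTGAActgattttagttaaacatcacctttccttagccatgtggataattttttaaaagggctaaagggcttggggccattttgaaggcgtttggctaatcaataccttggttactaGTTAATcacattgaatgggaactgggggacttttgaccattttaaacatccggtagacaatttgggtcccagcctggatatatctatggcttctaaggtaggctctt
C8b: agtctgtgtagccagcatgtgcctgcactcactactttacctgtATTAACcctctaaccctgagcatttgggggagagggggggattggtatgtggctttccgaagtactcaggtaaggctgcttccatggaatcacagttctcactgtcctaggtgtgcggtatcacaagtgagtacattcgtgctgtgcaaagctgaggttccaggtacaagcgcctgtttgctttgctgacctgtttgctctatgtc
C9: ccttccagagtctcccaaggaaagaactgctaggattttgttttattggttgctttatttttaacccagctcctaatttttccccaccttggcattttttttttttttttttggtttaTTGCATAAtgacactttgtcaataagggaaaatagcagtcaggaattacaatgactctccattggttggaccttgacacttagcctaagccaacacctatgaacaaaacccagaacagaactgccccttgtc
The motifs were searched on both strands and their matches did not overlap in these windows. GTTAAT, one arm of the site of HNF1, a liver transcription factor, was found in C8b (ATTAAC, beginning 206 bases before the start), C8a (GTTAAT at 107) and Hc (ATTAAC at 74), and in 6.43% of 32851 RefSeq promoter windows of the same length. TTGCNNAA, a C/EBP motif, was found in C9 (TTGCATAA at 132) and in 9.56% of windows. TTCNNNGAA, the STAT motif, was found in C8a (TTCACTGAA at 228) and in 7.02% of windows. TATAAA was found in Hc (at 239) and in 12.4% of windows. CAAAGTCCA (HNF4 core, 0.384% of windows), TGTTTAC (FOXA, 3.17%) and the direct repeat bound by PPAR (0.0335%) matched in none of the 6 genes, and C6 and both listed starts of C8g had no match to any of the 7 motifs. No searched motif was matched in all 3 genes that fell.

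Other complement genes were counted from lists written from textbook knowledge, with earlier results of these data known. Of 14 measured initiators of the classical and lectin pathways, which recognise antibodies and sugars, 1 rose at 7 days and 0 at 14 or 21 days, with 0 lower (limma; 2, 2 and 0 had an unadjusted p under 0.05). It was C1qc, a chain of C1q (5.59 in controls, 6.04 at 7 days, log2 0.46, adjusted p = 0.0249), and its call was not made after quantile normalisation. Their median change was 0.13, 0.08 and -0.01. C1q is made by macrophages, and the mean of 11 Kupffer cell and macrophage markers, which include the C1q chains, reached at most 5.66 in controls (median 5.33) and lay between 5.52 and 5.90 at 7 days (5.64). Its part in the C1qc difference was not tested. Vsig4, the complement receptor of Kupffer cells, was the 1 called gene of 5 measured receptors at 7 days (log2 0.64, adjusted p = 0.0270), also without a call after quantile normalisation, with 0 at the later times.

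The 4 measured convertase and alternative pathway genes (of 7 listed) had 0 called at any single time (1, 0 and 1 at an unadjusted p under 0.05). C2, the protease of the classical C3 convertase, was lower in the mean of the HFD times (log2 -0.35, SE 0.09, limma adjusted p = 0.0373), a call that centring ended, and after quantile normalisation it was also called at 7 days. Of 9 measured regulators, among them the inhibitors of the pore Clu and Vtn, 0 were called at any time by limma (1, 0 and 0 at an unadjusted p under 0.05), and their median was 0.07, 0.08 and -0.03. C7 did not pass either (-0.05, 0.09 and -0.01).

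Lists of other secreted liver proteins were set beside the members. Of 19 clotting and fibrinolysis genes 0 were called at any time (1, 0 and 3 at an unadjusted p under 0.05 in limma), and their median was -0.01, -0.04 and -0.10. Of 16 acute phase genes, Lcn2 (log2 1.12, adjusted p = 6.7e-09) and Hp, haptoglobin (0.28, 0.0039), rose at 7 days, and Orm1, an acid glycoprotein, fell at 14 days (-0.52, 0.0120) and 21 days (-0.56, 0.0050). Of all genes 1.4%, 0.667% and 0.7% were called at the 3 times. An unadjusted p under 0.05 in limma was found for 7 (5 higher), 5 (2 higher) and 3 (1 higher) of the 16, and for 9.28%, 6% and 6.66% of all genes. At 7 days quantile normalisation also called Orm1 lower, and centring called Saa2 higher. The median of the 16 was 0.16, -0.05 and -0.09.

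Genes that are higher in male than in female liver, complement left out, fell in 6 of 18 at 7 days, in 0 at 14 days and in 4 at 21 days, and in 8 in the mean of the HFD times, with 0 higher. Of all genes 0.239%, 0.161%, 0.256% and 0.528% were called lower in these comparisons. The list was written with earlier results of these data known, so the counts describe it and nothing is read from the shares. An unadjusted p under 0.05 in limma was found for 11, 10 and 13 of the 18 at the 3 times, all lower, and for 9.28%, 6% and 6.66% of all genes in either direction. Quantile normalisation gave 7, 1 and 5 and centring 5, 0 and 3. Their median was -0.36, -0.23 and -0.49. At 7 days the changes largest in size among the called genes were those of Serpina4-ps1 (-1.83, limma adjusted p = 0.0363), Egfr, Cyp7b1 and Hsd3b5, and the 4 at 21 days were Serpina4-ps1 (-1.89, 0.0438), Egfr, Cyp7b1 and Gstp1. Egfr, the epidermal growth factor receptor, fell at 7 and 21 days (-0.96 and -0.97, adjusted p = 0.0106 and 0.0169), and Hsd3b5, a steroid dehydrogenase, at 7 days (-0.73, 0.0146). Gstp1, a glutathione transferase, was called lower at 7 days as well as at 21 days, where its change was -0.76 (limma adjusted p = 0.0019). Of 16 liver transcription factors, Ppara rose at 7 and 14 days (0.65 and 0.55, adjusted p = 0.0027 and 0.0360, the latter lost with centring), with 0 called at 21 days (2 at an unadjusted p under 0.05).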

How the data were processed

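The deposited values are log2 signals that the authors made by RMA in Affymetrix Expression Console 1.1, per the submitters' processing notes; the sources used here do not state a genome build. Of 32624 probe sets, 19559 had 1 gene symbol, 1469 several and 11596 none in the platform annotation. The brightest single-symbol probe set stood for each of 17989 genes. Genes were fitted over all 42 arrays in 4 groups with limma 3.58.1 (lmFit, eBayes) in R 4.3.3, 2-sided, with Benjamini-Hochberg adjustment within a comparison and a threshold of 0.05. The procedure was tested on simulated data. The number of arrays limits the precision. All members were named; for each, so were the 3 named genes most correlated within groups and, per list, up to 4 called genes largest in change. Members and lists were chosen with earlier results of these data known. Promoter windows are from RefSeq (GRCm38.p6). Alternatives changed scaling, dim-gene filter, samples, array weights, variance prior, probe set rule, covariates and replicate block. Pair tests, the comparison of HFD arrays 5 to 8 with 1 to 4, and control subsets were added after the data were seen.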

Additional observations from a re-analysis of the deposited data

Results flagged for a closer look

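In the 7-day HFD group, array 5 had a C8g value of 11.2108, the highest of the 8. Its gap to the next array was 0.538 of the group's range, above the critical value of 0.526 for 8 values. It was the 1 extreme value found among 18 groups of member values examined, and chance gives about 1 in 20.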

How the results depend on the processing

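The number of called members moved from 2 to 1 at 7 days and at 14 days with median centring, with only the compared groups in the fit, with HFD arrays 5 to 8, without arrays whose acinar mean was above 7, and with controls 10 to 18. It was 0 at 14 days with HFD arrays 1 to 4. At 21 days it moved from 3 to 5 with HFD arrays 1 to 4, to 1 with arrays 5 to 8 and to 1 with controls 10 to 18, and in the mean of the HFD times to 1 with controls 10 to 18. Only the compared groups in the fit gave 2 at 21 days, and median centring gave 2 in the mean. Further fits that ended the C6 or C9 call in the mean are named with those genes. Leaving out 1 array gave 1 to 2 called members at 7 days, 1 to 2 at 14 days, 2 to 3 at 21 days and 2 to 3 in the mean.

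Called genes numbered 605 at 7 days with array weights, 144 with HFD arrays 5 to 8 and 131 without the acinar-rich arrays, against 251. At 14 days they numbered 193 with array weights, 69 and 58 with HFD arrays 1 to 4 and 5 to 8, 65 without the acinar-rich arrays and 61 with controls 10 to 18, against 120. At 21 days they numbered 903 and 349 with arrays 1 to 4 and 5 to 8 and 71 with controls 10 to 18, against 126, and in the mean 765, 679 and 180, against 339. Between 14 and 7 days there were 3 with array weights and 0 to 1 with 1 array left out, against 0. The 1 gene between 21 and 7 days became 0 under quantile normalisation, the compared groups alone, array weights, the replicate block, both sets of HFD arrays and without the acinar-rich arrays, and 0 to 1 with 1 array left out. The cause was not tested.

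Direction changed only for differences that had not passed. For C8g at 7 days it was -0.0502 (quantile), -0.0022 (array weights), -0.0087 (replicate block), -0.0880 (HFD arrays 1 to 4) and -0.0247 (without acinar-rich arrays), and between -0.0603 and 0.0629 with 1 array left out. At 21 days C8g was -0.0100 (replicate block) and -0.0010 (arrays 1 to 4), and between -0.0331 and 0.0605 with 1 array left out. In the mean it was 0.0208 (arrays 5 to 8) and between -0.0467 and 0.0088 with 1 array left out. Hc was 0.0225 (array weights) and 0.0114 (without acinar-rich arrays) at 7 days, and 0.0082 and 0.0644 (arrays 5 to 8) at 14 and 21 days. With 1 array left out Hc lay between -0.1245 and 0.0093 at 7 days and between -0.1146 and 0.0310 at 14 days. C8a with arrays 5 to 8 was 0.1187 at 21 days and 0.0163 in the mean. C6 minus C8g at 7 days was 0.0690 with arrays 1 to 4, and the C8g difference between the 21-day sets was -0.1146 after quantile normalisation.

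The main fit had no pairing by replicate number, since the labels do not say that a number marks a shared animal, batch or day. As a description, same-numbered arrays were correlated, and in no 2 groups did every pair pass 0.1. Between controls and HFD groups 5 of 24 pairs did (-0.37 to 0.36). Between HFD groups 17 of 24 did (-0.26 to 0.52), with 7 of 8 between 14 and 21 days (0.098 to 0.52). Arrays of unlike number were not set beside them, so these values cannot decide whether numbers mark pairs. With the replicate block 227, 77 and 93 genes were called at the 3 times and 2, 2 and 3 members. The C6 call in the mean was lost (-0.45, adjusted p = 0.158), and between the HFD times 0 genes were called with the block. Array medians lay between 3.08 and 3.28, and 67.53% of genes were above background.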
